A study of Rattus norvegicus with 8 samples.

Results

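Axon guidance and neural cell adhesion genes were followed in glia sorted by their lipid droplet content. The genes were taken from the gene names in the authors' sheets of lower and higher genes, by the name stems of the guidance and adhesion families (semaphorins, plexins, ephrins and their receptors, cadherins, contactins, neurexins and others). The stems took in 42 of the 1187 listed genes, each name once. Every listed gene had passed the authors' threshold, so being called is what put a gene here and is no result about it. Passing that threshold depends on the size of the change and on the level, so both are given as a description of called genes.

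The cells were glia of the newborn rat hippocampus (postnatal day 0), kept for 3 to 5 days in culture with 10% fetal bovine serum. They were stained with Nile red, a dye of neutral lipid, and sorted by its fluorescence. RNA was sequenced from 4 samples with low (LD-low) and 4 samples with high (LD-high) lipid droplet content. Both groups came from the same kind of mixed primary culture, and the labels name no sort for a cell type and do not say whether the samples of a group came from separate animals. The p-values may then measure technical spread only. The authors' sheets hold 1 level per gene and group, in FPKM (fragments normalised for transcript length and library size), so no level below has an SD, the depth per sample is unknown, and the error of a difference is known only through the authors' q, the p-value adjusted over all genes they tested.

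Growing axons are steered by secreted or membrane-bound cues that bind receptors on the growth cone, the motile tip of the axon. Semaphorins bind plexins and neuropilins, ephrins bind Eph receptors, Slits bind Robo receptors and netrins bind DCC and Unc5 receptors. Cadherins, immunoglobulin-type adhesion molecules and synaptic adhesion molecules such as neuroligins then hold axons, glia and synapses together. Many of these families are best known from neurons, and several members also act in astrocytes, oligodendrocyte precursors or connective tissue cells.

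Most of the 42 listed guidance and adhesion genes were lower in LD-high glia. Of the 42 genes, 37 were lower and 5 were higher in LD-high glia in the authors' deposited table, so that 88.1% were lower. Among all 1187 listed genes 46.2% were lower and 53.8% higher, and of the 12981 genes that the authors tested 4.22% were called lower and 4.92% higher. The median log2 change, LD-high over LD-low, was -1.57 over the 40 members above 0 in both groups, and 0.77 over the 1161 listed genes above 0 in both groups. No listed gene changed by between -0.675 and 0.657, so these 2 medians mostly follow the split into lower and higher genes. Over all higher genes above 0 the median was 1.13. The 35 lower members above 0 had a median log2 change of -1.65, beside -1.40 over all lower genes, and 11 of them (31.4%) fell by more than 4-fold, beside 26.7% of all lower genes above 0. The q-value was 0.00187, the smallest in the authors' deposited table, for 21 of the 42 genes and at least 0.04 for 5.

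**Figure D1:**
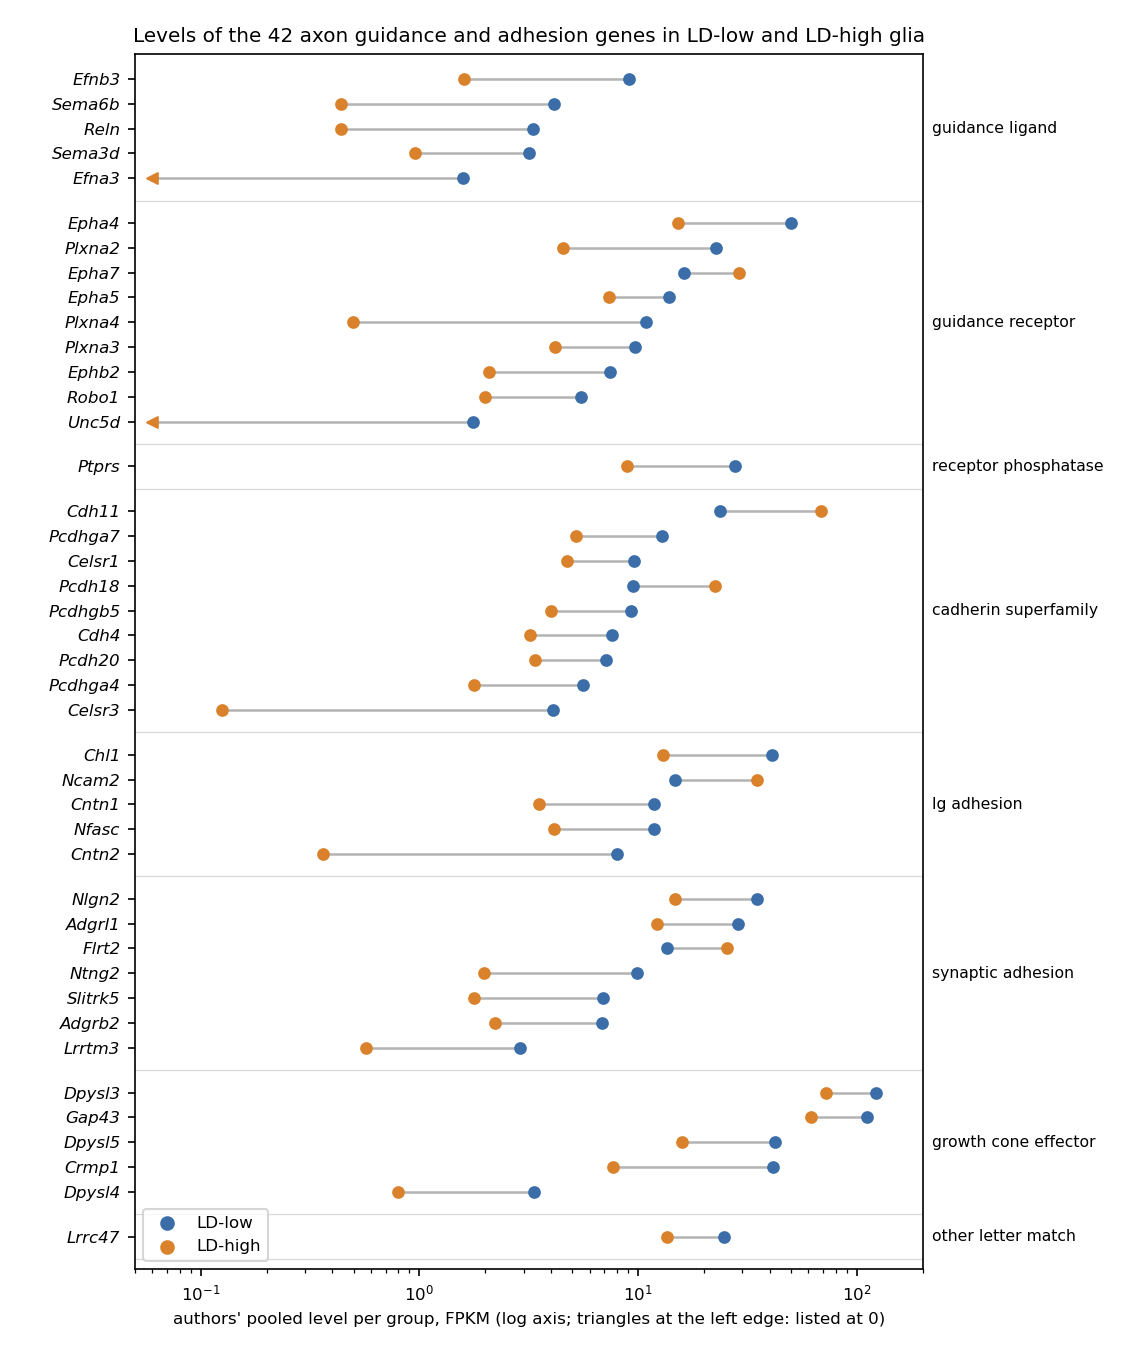
The authors' pooled levels of the 42 genes in LD-low (blue) and LD-high (orange) glia, in FPKM on a log axis, grouped by class. Each grey line joins the 2 levels of a gene, and triangles mark Efna3 and Unc5d, listed at 0 in LD-high glia. In 37 genes the orange point lies left of the blue one, and in Epha7, Cdh11, Pcdh18, Ncam2 and Flrt2 it lies to the right.

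Neuron markers moved in the same direction. Of 23 neuron markers the authors' deposited table calls 12 (52.2%), each of them lower, beside 4.22% of all genes tested. Their summed level was 610 FPKM in LD-low and 129 FPKM in LD-high glia. No called neuron marker was listed at 0, and the levels of the 12 in LD-high glia ran from 0.268 FPKM (Nefl) to 80.7 FPKM (Map2). Neurod1, Dcx and Tubb3, which were among the larger falls, lay at 1.49, 3.39 and 1.54 FPKM there. Map2 had the smallest fall of the 12, from 161 FPKM in LD-low glia, and Stmn2 fell from 102 to 25.6 FPKM. Of 12 oligodendrocyte lineage markers 2 (16.7%) were called, both lower, with summed levels of 25.9 and 4.39 FPKM. In the other direction, 10 of 14 microglia and macrophage markers (71.4%) were called higher in the authors' deposited table (44.6 to 504 FPKM in sum). So were 4 of 9 fibroblast, meningeal and mural markers (44.4%, 71.2 to 218 FPKM) and 3 of 9 endothelial markers (33.3%, 13.0 to 41.0 FPKM). Of 15 astrocyte markers 3 (20%) were called higher (49.0 to 87.6 FPKM). Of all genes tested, 4.92% were called higher. The shares of markers are of all symbols in a list, whether or not the authors tested them. The astrocyte markers Gfap, Aqp4 and Slc1a3 were not among the listed genes, so the labelled cell type could not be checked by their levels. In such bulk samples fewer cells of a type and less RNA per cell cannot be told apart, and the part of these cell types in the changes of the guidance and adhesion genes was not tested.

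The promoters of Celsr3 and Cntn2, which had the largest falls of the members above 0 in both groups, and of Ncam2, which was higher, show the sequence at which transcription of these genes starts. They run from 250 bases before to 50 bases after the annotated start in RefSeq (build GRCr8), 5′ to 3′ on the gene's strand. Capitals mark the letters TTCAGCACC, the first 9 letters of the RE1 element that the repressor REST binds, and CANNTG, the E-box of basic helix-loop-helix factors, each searched on both strands.
Celsr3 (chr8:118408886-118409185, plus strand): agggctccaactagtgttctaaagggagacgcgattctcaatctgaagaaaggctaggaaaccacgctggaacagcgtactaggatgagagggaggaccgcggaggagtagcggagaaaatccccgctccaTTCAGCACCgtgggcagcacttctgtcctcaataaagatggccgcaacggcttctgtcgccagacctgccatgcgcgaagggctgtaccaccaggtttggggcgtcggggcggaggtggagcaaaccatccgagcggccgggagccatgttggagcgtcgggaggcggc
Cntn2 (chr13:46527976-46528275, minus strand): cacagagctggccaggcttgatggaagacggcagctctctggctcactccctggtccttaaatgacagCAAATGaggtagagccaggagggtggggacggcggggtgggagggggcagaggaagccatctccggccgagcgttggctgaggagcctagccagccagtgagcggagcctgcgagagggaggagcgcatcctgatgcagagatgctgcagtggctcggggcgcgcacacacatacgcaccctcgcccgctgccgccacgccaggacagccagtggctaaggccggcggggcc
Ncam2 (chr11:33591573-33591872, plus strand): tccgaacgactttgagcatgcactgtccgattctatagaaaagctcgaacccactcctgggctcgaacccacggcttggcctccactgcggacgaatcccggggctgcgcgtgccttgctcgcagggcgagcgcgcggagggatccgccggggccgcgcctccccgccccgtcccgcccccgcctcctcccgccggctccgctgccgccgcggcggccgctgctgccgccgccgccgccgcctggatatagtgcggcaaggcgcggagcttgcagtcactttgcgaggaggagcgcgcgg

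The RE1 letters began 119 bases before the start of Celsr3. They were in 1 of the 33 member promoters in the RefSeq table, that of Celsr3, and in 0.379% of all 27457 promoters there. The share was 1.01% for the promoters of all lower genes and 0.617% for those of all higher genes. These letters were chosen for the search after the Celsr3 promoter had been read, so their count among members is no result. An E-box was in 15 of the 33 member promoters (45.5%), in 55.7% of the promoters of all lower genes, in 63.6% of those of all higher genes and in 71.6% of all promoters. The E-box of Cntn2 began 182 bases before the start. The median GC content was 52.3% over the 29 promoters of lower members and 65.0% over the 4 of higher members, beside 64.7% for all lower genes, 60.0% for all higher genes and 52.3% for all promoters. A match in these letters is a description of the window and was not tested for binding.

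All 5 listed guidance ligands were lower in LD-high glia, and 4 of them lay below 1 FPKM there. Efnb3, a membrane-bound ephrin that repels axons carrying EphA4, fell from 9.12 to 1.59 FPKM (log2 change -2.52). Sema6b, a transmembrane semaphorin that binds class A plexins, fell from 4.13 to 0.438 FPKM (log2 change -3.24), with q = 0.0486 in the authors' deposited table, the largest q of the 42 genes. Reln, the secreted protein reelin that positions migrating neurons, fell from 3.30 to 0.438 FPKM (log2 change -2.91). These levels were low in both groups, and Efnb3 had the highest of the ligands in LD-low glia.

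Sema3d, a secreted semaphorin, fell from 3.18 to 0.956 FPKM (log2 change -1.73, with q = 0.0403 by the authors' deposited table). Efna3, an ephrin attached by a lipid anchor, had 1.58 FPKM in LD-low glia and was listed at 0 in LD-high glia (q = 0.00332 in the authors' deposited table), and no fold is given for it. The median log2 change of the 4 ligands above 0 in both groups was -2.71, beside -1.40 over all lower genes. Sema6b, Reln and Sema3d lay under 5 FPKM in LD-low glia, where the median over all lower genes was -2.18. No Slit, netrin or neuregulin was among the listed genes.

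Of 9 listed guidance receptors 8 were lower and 1 was higher. The 3 plexins listed all belong to class A, the signalling receptors for semaphorins. Plxna4 fell from 10.8 to 0.495 FPKM (log2 change -4.45), a 21.9-fold difference that ranked 12th in size among the 528 lower genes above 0. Plxna2 fell from 22.8 to 4.52 FPKM (log2 change -2.33) and Plxna3 from 9.73 to 4.15 FPKM (log2 change -1.23). Each of the 3 had q = 0.00187 in the authors' deposited table, and the difference between Plxna4 and Plxna3 in size of change was not tested.

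The Eph receptors, tyrosine kinases that bind ephrins, did not all move one way. Epha4, a receptor for ephrins of both classes, had the highest level of the receptors in LD-low glia and fell from 50.1 to 15.1 FPKM (log2 change -1.72). Ephb2, which also acts at synapses, fell from 7.42 to 2.09 FPKM (log2 change -1.83). Epha5 fell from 13.8 to 7.37 FPKM (log2 change -0.91, with q = 0.0257 by the authors' deposited table). Epha7 rose from 16.2 to 28.8 FPKM (log2 change 0.83, with q = 0.0266 by the authors' deposited table). In LD-low glia the levels ran in the order Epha4, Epha7, Epha5 and Ephb2, and in LD-high glia Epha7 stood first, with the spread behind this order unknown.

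Robo1, the receptor of Slit proteins, fell from 5.50 to 1.99 FPKM (log2 change -1.47, with q = 0.0179 by the authors' deposited table). Unc5d, a receptor of netrins and of FLRT proteins, had 1.76 FPKM in LD-low glia and was listed at 0 in LD-high glia (q = 0.00187 in the authors' deposited table). Its binding partner Flrt2 moved the other way, from 13.6 to 25.5 FPKM (log2 change 0.90, with q = 0.0152 by the authors' deposited table). Ptprs, a receptor phosphatase that binds proteoglycans of the matrix and synaptic partners, fell from 27.7 to 8.91 FPKM (log2 change -1.64, with q = 0.00187 by the authors' deposited table). Dcc and the neuropilins were not among the listed genes.

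**Figure D2:**
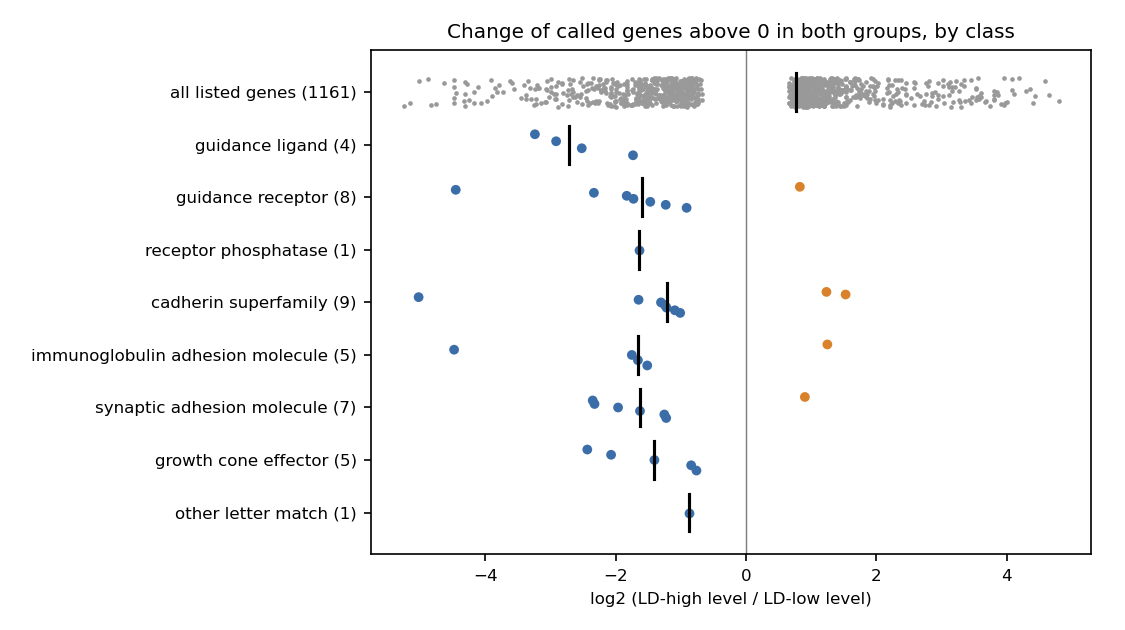
The log2 change (LD-high over LD-low) of each called gene above 0 in both groups, for all 1161 such listed genes (grey) and for the members by class (blue lower, orange higher), with the number of genes in brackets. Black lines are medians. The medians are -2.71 for ligands, -1.60 for receptors, -1.22 for cadherins and 0.77 for all listed genes. No listed gene lies between -0.675 and 0.657, so the median of all listed genes follows their split into lower and higher.

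Among the cadherin superfamily, 7 of 9 listed genes were lower and 2 were higher. Celsr3, a seven-pass cadherin needed for axon tracts in the forebrain, fell from 4.07 to 0.125 FPKM (log2 change -5.02), the largest fall of the 35 lower members above 0 and the 3rd in size of the 528 lower genes above 0. Its relative Celsr1, a protein of planar cell polarity in epithelia and progenitors, fell from 9.55 to 4.75 FPKM (log2 change -1.01). Celsr3 had q = 0.00187 and Celsr1 q = 0.0133 in the authors' deposited table. Celsr3 (ENSRNOG00000053889) lies at chromosome 8, 117620317 to 117648028, in the rn6 build of the sheets.

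The other lower cadherins changed by between -1.65 and -1.09 on the log2 scale, with q between 0.0210 and 0.0483 in the authors' deposited table. Cdh4, the classical R-cadherin, fell from 7.59 to 3.20 FPKM. Pcdh20, a protocadherin outside the clusters, fell from 7.17 to 3.37 FPKM. Pcdhga4 (5.59 to 1.78 FPKM), Pcdhga7 (12.8 to 5.21 FPKM) and Pcdhgb5 (9.31 to 4.01 FPKM) belong to the gamma cluster of protocadherins, which gives single neurons their own surface code. Their listed loci on chromosome 18 span 2.40 to 2.43 kb each and do not overlap. Since genes of this cluster resemble each other in sequence, their levels are uncertain.

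Cdh11, a cadherin typical of mesenchymal cells, rose from 23.7 to 68.4 FPKM (log2 change 1.53), the largest rise of the members and the highest level of the cadherins in either group. Pcdh18, a non-clustered protocadherin, rose from 9.50 to 22.4 FPKM (log2 change 1.24). Both had q = 0.00187 in the authors' deposited table. The fibroblast, meningeal and mural markers Col1a1 and Postn rose as well, from 39.8 to 113 FPKM and from 14.6 to 55.0 FPKM, and their part in the rise of Cdh11 and Pcdh18 was not tested.

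The 5 listed immunoglobulin-type adhesion molecules all had q = 0.00187 in the authors' deposited table, 4 lower and 1 higher. Cntn2, the axonal contactin also called TAG-1, fell from 8.03 to 0.361 FPKM (log2 change -4.48), a 22.3-fold difference that ranked 11th among the 528 lower genes above 0. Cntn1, a contactin of axons and of oligodendrocyte precursors, fell from 11.9 to 3.53 FPKM (log2 change -1.75). Nfasc, neurofascin, which binds Cntn1 where myelin meets the axon, fell from 11.8 to 4.13 FPKM (log2 change -1.51). In LD-low glia Cntn1 and Nfasc thus had nearly equal levels. In LD-high glia Nfasc lay somewhat above Cntn1, with the spread behind this unknown, and Cntn2 lay below both in each group.

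Chl1, a close homologue of the axonal molecule L1, fell from 41.0 to 13.0 FPKM (log2 change -1.66) and had the highest level of this class in LD-low glia. Ncam2, a relative of the neural cell adhesion molecule NCAM known from olfactory axons, rose from 14.7 to 35.0 FPKM (log2 change 1.25) and had the highest level of this class in LD-high glia. Ncam1, L1cam, Nrcam and the Dscam genes were not among the listed genes.

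Of 7 listed synaptic adhesion molecules 6 were lower. Nlgn2, the neuroligin of inhibitory synapses, fell from 35.0 to 14.7 FPKM (log2 change -1.25) and had the highest level of this class in LD-low glia. Adgrl1, a latrophilin that binds teneurins, neurexins and FLRT proteins, fell from 28.6 to 12.2 FPKM (log2 change -1.22). Both had q = 0.00187 in the authors' deposited table.

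The other 4 lower genes of the class had lower levels. Lrrtm3, a postsynaptic partner of neurexins, fell from 2.89 to 0.568 FPKM (log2 change -2.35), and Ntng2, the membrane-anchored netrin-G2, fell from 9.91 to 1.98 FPKM (log2 change -2.32). Slitrk5, which binds receptor phosphatases across the synapse, fell from 6.93 to 1.78 FPKM (log2 change -1.96), and Adgrb2, a receptor of the BAI family, from 6.84 to 2.22 FPKM (log2 change -1.62). The q of these 4 genes was at most 0.0246 in the authors' deposited table. Flrt2, described above, was the higher gene of the class. A further gene of the BAI family is listed under its older name Bai1 and so was not among the 42. It fell from 66.9 to 37.8 FPKM (log2 change -0.82, with q = 0.0301 by the authors' deposited table). No neurexin was among the listed genes.

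The 5 listed genes of growth cone proteins were all lower in LD-high glia. Crmp1, Dpysl3, Dpysl4 and Dpysl5 encode collapsin response mediator proteins, which carry semaphorin signals to the cytoskeleton. Crmp1 fell from 41.5 to 7.69 FPKM (log2 change -2.43) and Dpysl5 from 42.2 to 15.9 FPKM (log2 change -1.40), both with q = 0.00187 in the authors' deposited table. Dpysl4 fell from 3.36 to 0.801 FPKM (log2 change -2.07). Dpysl3 fell from 122 to 72.1 FPKM (log2 change -0.76), the smallest fall of the 35 lower members above 0. Of the 5 genes of this family in RefSeq 4 were thus called lower, beside 2.24% of all protein-coding genes there. Dpysl2 was not among the listed genes.

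Gap43, a membrane-bound protein of growing axons that cultured glia can also express, fell from 111 to 62.1 FPKM (log2 change -0.84, with q = 0.0179 by the authors' deposited table). Dpysl3 and Gap43 had the highest levels of the 42 genes in LD-low glia and, with Cdh11, in LD-high glia too. Lrrc47, which the stem Lrrc4 takes in by its letters, belongs to none of these families. It fell from 24.7 to 13.5 FPKM (log2 change -0.87).

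The falls were also set against the level. The 6 lower members under 5 FPKM in LD-low glia had a median log2 change of -2.63, the 18 between 5 and 20 FPKM a median of -1.57 and the 11 at 20 FPKM or more a median of -1.40. Over all lower genes the same medians were -2.18, -1.40 and -1.01. The Spearman correlation between LD-low level and log2 change was 0.45 over the 35 lower members and 0.47 over the 528 lower genes above 0, as a description over genes that share the same libraries and the same level on both axes. No lower gene under 5 FPKM was listed with a change smaller than -1.03, whereas at 20 FPKM or more the smallest listed change was -0.68. In LD-low glia 0 of the 42 genes lay below 1 FPKM, and in LD-high glia 10 did.

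**Figure D3:**
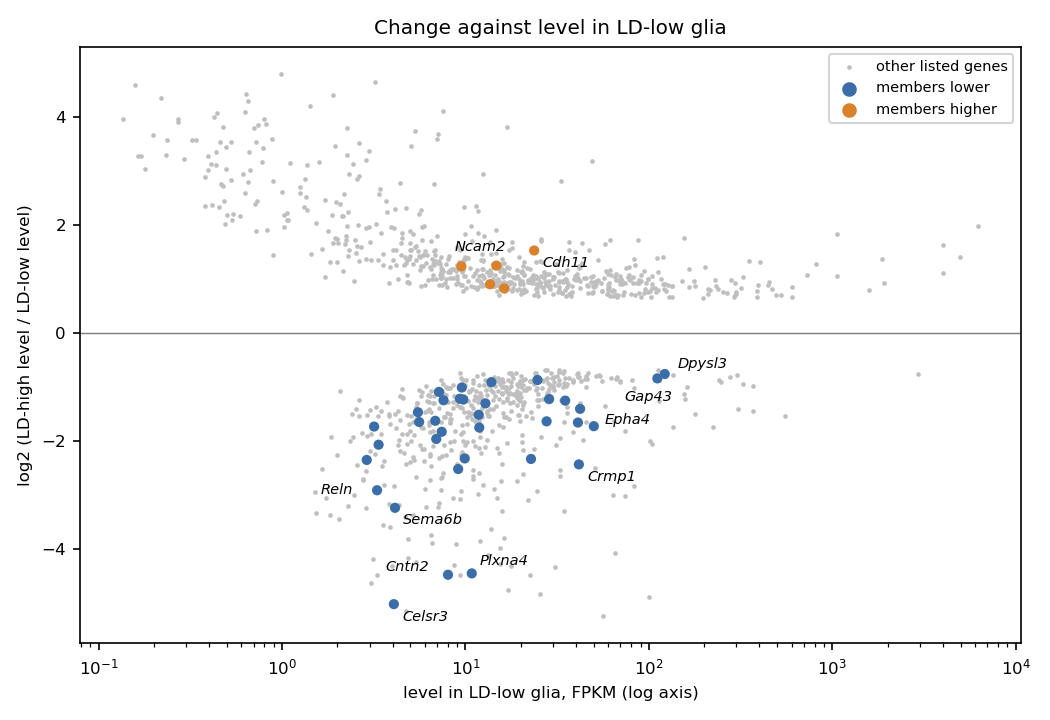
The log2 change (LD-high over LD-low) against the level in LD-low glia, in FPKM on a log axis, for listed genes above 0 in both groups. Members are blue where lower and orange where higher. The 35 lower members spread from -5.02 (Celsr3) to -0.76 (Dpysl3), and the 5 higher members lie between 0.83 and 1.53.

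RefSeq (build GRCr8) was used to set the listed genes beside their families. It holds 236 protein-coding genes whose names match the stems, of which 16.1% were found in the sheet of lower genes and 2.12% in the sheet of higher genes, Bai1 included under its current name. Of all 23154 protein-coding genes there, 2.24% were found in the sheet of lower genes and 2.56% in the sheet of higher genes. These are shares of annotated and not of tested genes. By class, 12.5% of 40 ligands, 22.2% of 36 receptors, 9.21% of 76 cadherins, 28.6% of 14 immunoglobulin-type molecules and 16.3% of 43 synaptic adhesion molecules were found among the lower genes. In the plexin family 3 of 9 genes were found there and in the semaphorin family 2 of 20.

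Other genes that work with these families were followed in lists of symbols. The list of further neural adhesion molecules has 64 symbols, of which the authors' deposited table calls 13 lower and 0 higher, with a median log2 change of -1.63. Mdga1, which binds neuroligins, fell from 4.87 to 0.347 FPKM (log2 change -3.81). Tenm2, a teneurin that binds Adgrl1, fell from 12.5 to 1.79 FPKM (log2 change -2.81). Opcml, an adhesion molecule of the IgLON family, had the highest level of them and fell from 64.2 to 20.9 FPKM (log2 change -1.62). The 13 called are 20.3% of the list, beside 4.22% of all genes tested that were called lower. The shares of this list and of those below are of symbols and not of tested genes. Some genes stand in the lists under both an older and a current name. The other symbols were not among the listed genes.

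The list of anchors and scaffolds has 48 symbols. The authors' deposited table calls 15 of them lower (31.25%) and 1 higher (2.08%), with a median log2 change of -2.01. Of all genes tested, 4.22% were called lower and 4.92% higher. The list holds 2 of the neuron markers, Dcx and Stmn2. Ank3, ankyrin-G, which anchors neurofascin to the axon's spectrin skeleton, fell from 20.3 to 5.00 FPKM (log2 change -2.02). Ctnna2, the neural alpha-catenin that links cadherins to actin, fell from 11.9 to 0.827 FPKM (log2 change -3.85). Shank1, a scaffold of excitatory synapses, fell from 8.70 to 0.441 FPKM (log2 change -4.30). Marcks, an actin-binding membrane protein, rose from 393 to 725 FPKM (log2 change 0.88).

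Signalling genes downstream of the receptors were called in both directions. The list has 72 symbols, of which the authors' deposited table calls 3 lower (4.17%) and 2 higher (2.78%), no more than the 4.22% and 4.92% of all genes tested. Trio, a guanine nucleotide exchange factor, fell from 7.87 to 3.93 FPKM and the kinase gene Abl1 from 6.50 to 2.36 FPKM. Arhgef12, which binds plexin B, fell from 20.6 to 11.2 FPKM. Rock1 and Rock2, kinases that act on the actin and myosin skeleton, rose from 32.4 to 69.7 FPKM and from 81.8 to 155 FPKM. Of 46 symbols for other cues and receptors 2 (4.35%) were called lower, close to the 4.22% of all genes tested. They were Lrp8, a receptor of reelin (20.6 to 8.19 FPKM), and Lingo1, a partner of the Nogo receptor (20.6 to 4.59 FPKM), each with q = 0.00187 in the authors' deposited table.

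**Figure D4:**
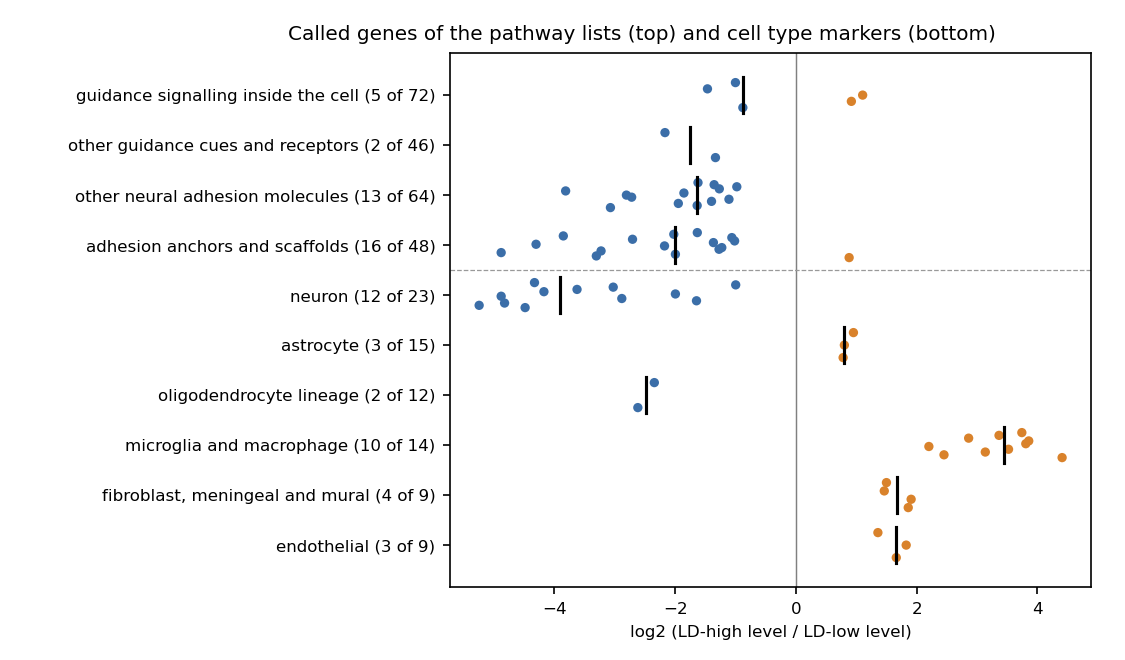
The log2 change (LD-high over LD-low) of the called genes of each list, with the number called of the number of symbols in brackets and medians as black lines. The 4 lists of guidance and adhesion partners stand above the dashed line and the 6 lists of cell type markers below it. All 13 called further adhesion molecules and all 12 called neuron markers lie left of 0, and the 10 called microglia and macrophage markers lie right of it.

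The authors' own over-representation test of Gene Ontology terms also covers these families. Among the 104 terms in the authors' deposited table for lower genes, axon guidance had a Bonferroni-corrected p of 0.000114, axonogenesis 2.41e-09 and homophilic adhesion through membrane molecules 0.0384. Among the 228 terms in the authors' deposited table for higher genes, cell adhesion had a corrected p of 1.11e-05 and the regulation of leukocyte cell-cell adhesion 0.00232. They ranked 77th and 136th. These p-values come from the same listed genes as the counts above and are no independent support for them.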

How the data were processed

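The 4 LD-low and 4 LD-high samples were grouped by their titles. Bowtie2, Cuffdiff and the rn6 build are named, with no versions, per the submitters' processing notes. The cDNA was amplified before library construction, per the labels' protocols. Annotation and strand setting are not given in the sources used. The authors deposited 1 level per gene and group, whose header names no unit and which is read here as FPKM because Cuffdiff reports it. Each called gene also has the deposited log2 fold change with its p-value and q-value, per the file headers. With 0 columns of single samples, no test between samples was run here. In the sheet of lower genes the log2 cells of the 20 genes at 0 hold an error text, so the levels gave the log2 change used here, with no fold where a level is 0. The number of genes tested, 12981, was recovered from the deposited p and q by inverting the Benjamini-Hochberg formula, which was tested on simulated data. Starts were raised by 1.

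The 42 genes and all lists were chosen with earlier results of these data known. Named are, per class, the 4 largest changes at 1 FPKM or more, the highest level, all genes of the rarer direction and all genes at 0. Further members were named from the same sheets, and the examples from the pathway lists were picked with their values in view. All 42 members matched RefSeq by symbol, and 33 had a promoter in the table. Python 3.11.15, pandas 2.3.3 and scipy 1.17.1 were used. Alternatives were stricter q, size and level filters, leaving out groups of members and pseudocounts on the log2 scale.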

Additional observations from a re-analysis of the deposited data

How the results depend on the processing

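The split of 37 lower and 5 higher genes kept its direction under each of the 8 alternatives for counts, and the median log2 change of -1.57 stayed below 0 under each of the 10 for the median. All of these start from the same called genes, most of them lower, so they are a weak check of the direction. Keeping repeated names and asking for at least 1 FPKM in the higher group left the counts and the median unchanged. At q below 0.01 there were 21 lower and 3 higher genes with a median of -1.74. With a log2 change of at least 1 on either side, 3 higher genes were left and the median was -1.65. The median was -1.35 at 5 FPKM or more in the higher group, -1.62 without Lrrc47 and likewise -1.62 without the clustered protocadherins. It was -1.59 with a pseudocount of 0.1 FPKM and -1.28 with one of 1 FPKM, with Efna3 and Unc5d included. No paired analysis was possible because the sheets hold no values per sample, and for the same reason leaving out single replicates was not run. The depth of each sample is unknown, so that the precision of levels below 1 FPKM cannot be given.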

Other observations

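Some of the guidance and adhesion genes lie close together in rn6. Cntn2 (chromosome 13, 49285310 to 49313940) and Nfasc (49335408 to 49522415) are 21.5 kb apart with 0 other listed genes between them, and both were lower in LD-high glia, by -4.48 and -1.51 on the log2 scale. Ptprs and Sema6b on chromosome 9 are 296 kb apart with 0 listed genes between them, and changed by -1.64 and -3.24. Efnb3 and Nlgn2 on chromosome 10 are 264 kb apart with 3 listed genes between them, and changed by -2.52 and -1.25. The loci of the 3 gamma protocadherins on chromosome 18 are 30.4 and 13.4 kb apart, and their log2 changes ran from -1.65 to -1.22. With 37 of the 42 genes lower, most pairs of them would be lower on both sides wherever they lie.

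Among genes whose proteins are known to bind each other, several pairs in the sheets were lower on both sides. Efnb3 and its receptor gene Epha4 changed by -2.52 and -1.72 on the log2 scale, Cntn1 and Nfasc by -1.75 and -1.51, Tenm2 and Adgrl1 by -2.81 and -1.22, and Reln and its receptor gene Lrp8 by -2.91 and -1.33. Sema6b (-3.24) and the 3 class A plexin genes were lower as well. Flrt2 was higher (0.90) while Unc5d and Adgrl1, genes of receptors that bind it, were lower, Unc5d being listed at 0 in LD-high glia. The Eph receptor gene Epha7 was higher (0.83) while the ephrin gene Efna3 was lower and listed at 0 in LD-high glia. These pairs were picked with their values in view, and whether the changes took place in the same cells was not tested. As 37 of the 42 members were lower, most pairs drawn from them would be lower on both sides.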
